A study of Homo sapiens with 4 samples.

Results

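The 9 genes described here act on 5-fluorouracil and related fluoropyrimidines, drugs used against colorectal cancer. They are TYMS, UMPS, TYMP, UPP1, UCK2, TK1, DPYD, DUT and FPGS, chosen by symbol for their known roles, and each matched 1 of the 60658 Ensembl identifiers in the expression tables. Of the 9, 8 had a mean of at least 1 FPKM (fragments per kilobase of transcript, scaled to library depth) over the libraries and were among the 14803 genes compared by fold change. DPYD did not, and is described by its values alone.

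RNA was sequenced from HT29 and LIM1215, 2 established human colorectal cancer cell lines, after a negative control siRNA (NC) or an siRNA against TMEM161A (si2). An siRNA is a short RNA duplex that directs the breakdown of a matching mRNA. Only 1 siRNA against TMEM161A was used in these libraries, so any action on other mRNAs cannot be told apart from loss of TMEM161A. Each of the 4 groups of line and siRNA held 1 library, so no value has an error between cultures and no test can be made within a line. Across the lines, si2 can be tested against NC with the line as a block, which leaves 1 residual degree of freedom. The labels give no siRNA sequence, dose or time, and no drug was named for these libraries. The design text of the study names chemosensitivity among its assays.

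Inside the cell, 5-fluorouracil is turned into fluorinated nucleotides. UMPS, UPP1 with UCK2, and TYMP with TK1 start the activating routes. The active deoxynucleotide blocks TYMS, the enzyme that makes thymidylate, in a complex with reduced folate that is held tighter when FPGS has added glutamates to the folate. The other nucleotides enter RNA and DNA, where DUT limits the supply of uracil nucleotides for DNA, and DPYD breaks the drug down before it is activated.

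TMEM161A itself was the check of the siRNA labels. Its FPKM was 42.6 with NC and 4.64 with si2 in HT29, and 39.1 with NC and 7.61 with si2 in LIM1215. It cannot tell the lines apart, and the labels of the lines were not checked otherwise. From the steps between low values, 1 FPKM was estimated to equal 18.13 (LIM1215 control) to 21.56 (HT29 knockdown) fragments per kilobase. The 95% intervals below are exact (Clopper-Pearson for ratios, Poisson for levels) and cover counting error only. Of 9 epithelial markers, 9 were at an FPKM of at least 1 in both LIM1215 libraries but only 5 in both HT29 libraries. In HT29, VIL1 was listed at 0.0397 and 0, CDX1 at 0 in both, LGALS4 at 0.607 and 0.417, and KRT20 at 0.306 and 0.815, while EPCAM was at 168 and 154. In the LIM1215 control, VIL1 was at 192, CDX1 at 88.4, LGALS4 at 316 and KRT20 at 67.8. Whether such low values belong to the line named HT29 was not tested. Among markers of other cells, 1 of 6 fibroblast markers (COL1A1) and 0 of 4 endothelial markers reached an FPKM of 1 in any library. Of 7 immune markers, CD68 did so in all libraries and LYZ in LIM1215, while PTPRC, the pan-leukocyte gene, was listed at 0 in all 4. The summed FPKM was 6.03 to 18.2 for fibroblast and 6.51 to 74.4 for immune markers.

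The target of the drug came first. Positions are given on GRCh38 as in GENCODE release 44. TYMS (ENSG00000176890, chromosome 18, 657653 to 673578, plus strand), thymidylate synthase, was the most abundant of the 9 genes in each library, at an FPKM of 195 with NC and 134 with si2 in HT29, and 150.0 with NC and 125 with si2 in LIM1215. The knockdown library was lower than its control in both lines, and both LIM1215 libraries lay below the HT29 control. With si2 it stood at 68.7% of control in HT29 (interval 66.0% to 71.5%) and at 83.4% in LIM1215 (79.7% to 87.3%). In bulk RNA, fewer cells that express a gene and less of its mRNA per cell cannot be told apart. The log2 ratios of FPKM + 1, the measure used for all calls, were −0.54 and −0.26, short of the 2-fold threshold of 1. The intervals of the lines do not overlap, but the difference between the lines was not tested.

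TYMS shares 3261 bases with ENOSF1, a gene on the opposite strand, and the strand setting of the authors' counting is not given in the sources used here. ENOSF1 had an FPKM of 42.5 and 35.6 in HT29 control and knockdown and of 55.02 and 52.0 in LIM1215, so it was also lower in each knockdown library, at 83.7% and 94.6% of control. TYMSOS, a non-coding gene on that strand that shares 698 bases, had an FPKM of 1.84 and 0.865 in HT29 and of 5.05 and 3.47 in LIM1215. How much of these genes' values came from the shared stretches was not tested.

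Promoters of TYMS, DUT and TK1, which were all lower in both knockdown libraries, are shown because these genes are textbook examples of genes switched on for DNA replication. Windows of RefSeq promoter sequence (GRCh38.p14, 250 bases before to 50 after each annotated start) were found for 9 of 9 genes. They were searched on both strands for the E2F motif (TTTCCCGC, TTTCGCGC, TTTGCCGC or TTTGGCGC), the CCAAT box, the cell cycle homology region (CHR, written TTTGAA) and the Sp1 motif (GGGCGG). E2F proteins are transcription factors of S phase entry. Each stretch below is 30 bases on the strand of the gene, 5′ to 3′, with the motif match in capitals: E2F for TYMS (chr18:657603-657632, plus strand) and DUT (chr15:48332151-48332180, plus strand), and CCAAT on the reverse strand for TK1 (chr17:78187110-78187139 and chr17:78187079-78187108, minus strand).
TYMS: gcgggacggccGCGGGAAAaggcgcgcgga
DUT: gctgGCGGGAAAtttcggtTTTGGCGCgct
TK1 distal: ccgggcgctgATTGGccccatggcggcggg
TK1 proximal: ccggctcgtgATTGGccagcacgccgtggt

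An E2F match was present in a window of 2 of the 9 genes, TYMS and DUT, against 3.99% of the 27305 genes with a window. The match began 39 bases before the TYMS start, and the DUT matches 42 and 27 bases before the start of the most downstream of its 4 windows. The CCAAT matches of TK1 lay before the start of the more downstream of its 2 windows, and the other window had none. CCAAT was present in 4 of 9 (FPGS, TK1, TYMP and UCK2) against 39.7% of genes, the CHR in 2 of 9 (DUT and UMPS) against 18.2%, and the Sp1 motif in 7 of 9 against 48.3%. These are matches of letters. Binding at them was not measured. UCK2, the compared member with the lowest log2 ratio in both lines, had no E2F match in its window. A link between motif matches and knockdown ratios was not tested.

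**Figure D1:**
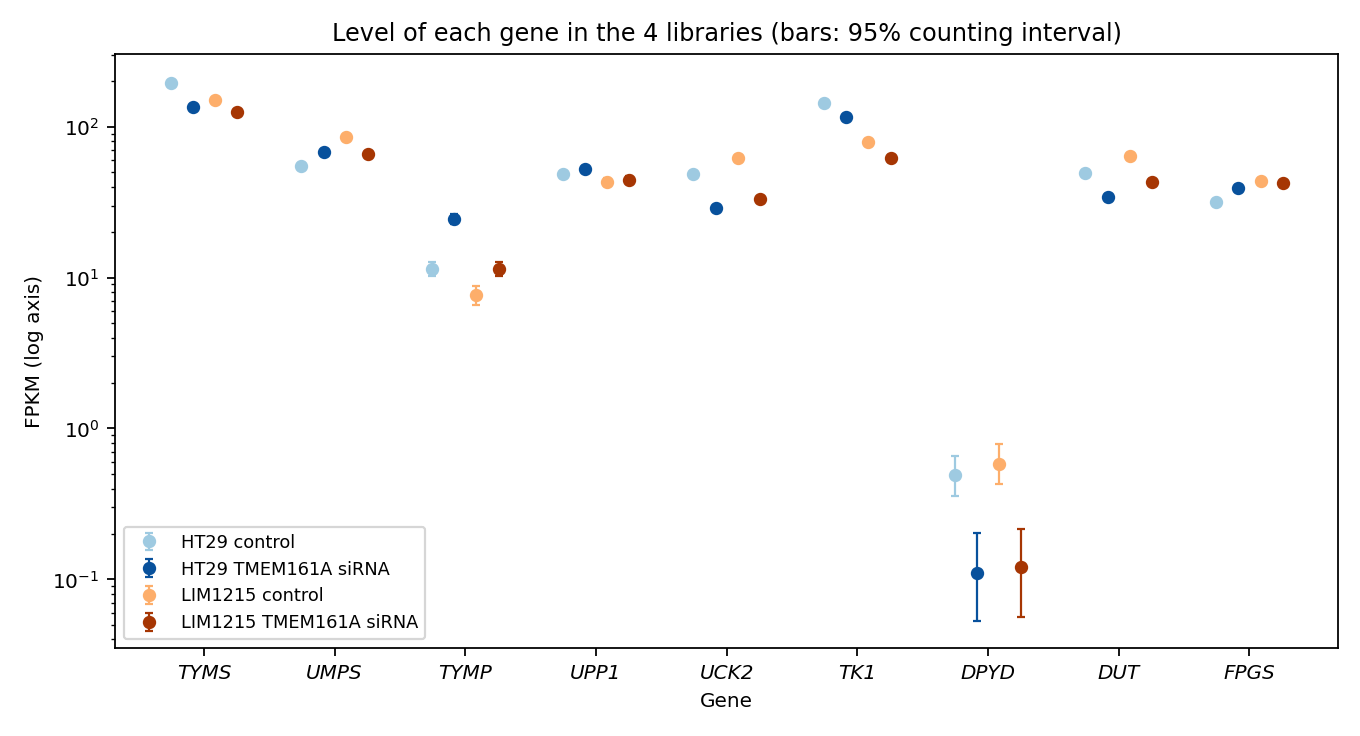
FPKM of the 9 genes (log axis) in each of the 4 libraries, 1 point per library, with bars for the 95% counting interval. TYMS is highest in every library and DPYD lowest, TYMS, UCK2, TK1 and DUT are lower in both knockdown libraries, and TYMP is higher in both.

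The activating enzymes did not move as a group. UCK2 (ENSG00000143179, chromosome 1, 165827614 to 165911618, plus strand), uridine-cytidine kinase, adds the phosphate to fluorouridine that UPP1 has made. Its FPKM was 48.7 with NC and 28.7 with si2 in HT29, and 62.3 with NC and 33.0 with si2 in LIM1215. Both knockdown libraries thus lay below both controls, and the share of all genes compared that did so was not computed. The level was 59.0% of control in HT29 (interval 56.3% to 61.8%) and 52.9% in LIM1215 (50.6% to 55.4%), with log2 ratios of −0.74 and −0.90. UCK2 was the only 1 of the 8 compared members lower by 1.5-fold in either line, against 6.91% of all genes compared in HT29 and 6.18% in LIM1215. TMCO1, which overlaps the start of UCK2 by 142 bases on the opposite strand, stood at 98.4% and 95.5% of control, with intervals that include no difference. ENSG00000236364, a non-coding gene on that strand that shares 11271 bases, had at most 1.49.

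UPP1 (ENSG00000183696, chromosome 7, 48088628 to 48108736, plus strand), uridine phosphorylase, joins 5-fluorouracil to ribose. Its 4 values lay close together, at 48.4 and 52.6 in HT29 control and knockdown and 43.2 and 44.4 in LIM1215. The HT29 knockdown level was 109% of control (101% to 117%) and the LIM1215 level 103% (95.02% to 112%), so the LIM1215 difference was not detectable at this depth. UPP2, its paralog, was listed at 0 in all libraries.

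TYMP (ENSG00000025708, chromosome 22, 50525752 to 50530032, minus strand), thymidine phosphorylase, joins the drug to deoxyribose and also carries out the last step of capecitabine activation. It had the highest log2 ratio of the compared members in each line. Its FPKM was 11.4 with NC and 24.3 with si2 in HT29, and 7.63 with NC and 11.4 with si2 in LIM1215. The HT29 knockdown library stood above the other 3, and the LIM1215 knockdown library reached only the level of the HT29 control. The level was 213% of control in HT29 (187% to 243%, from 336 and 726 estimated fragments) and 150% in LIM1215 (125% to 180%, from 191 and 320). The log2 ratio of 1.03 in HT29 passed the 2-fold threshold, and the 0.52 in LIM1215 did not.

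TYMP was the only 1 of the 8 compared members past 2-fold in HT29 (1.85% of all 14803 genes were higher by that much and 1.95% lower), and none passed in LIM1215, where 1.68% were higher and 1.78% lower. The HT29 call was narrow. The log2 ratio was 0.84 with a pseudocount of 5, 0.95 with FPKM rescaled to a common sum and 0.99 after centring on the median gene, and each of these, like upper quartile scaling, left it under the threshold. ODF3B, which overlaps TYMP by 323 bases on the same strand, had an FPKM of 3.24 and 4.35 in HT29 and 3.19 and 3.11 in LIM1215. SCO2, which overlaps it by 710 bases, is not analysed here, so a share of its fragments in the TYMP values was not tested.

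TK1 (ENSG00000167900, chromosome 17, 78174091 to 78187233, minus strand), the thymidine kinase of S phase, phosphorylates the fluorodeoxyuridine that TYMP makes. Its FPKM was 144 and 116 in HT29 control and knockdown and 79.0 and 61.7 in LIM1215. The lines were set apart more than the siRNAs, since both HT29 libraries were above both LIM1215 libraries. With si2 the level was 80.2% of control in HT29 (76.5% to 84.2%) and 78.1% in LIM1215 (72.9% to 83.6%), with log2 ratios of −0.32 and −0.35.

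UMPS (ENSG00000114491, chromosome 3, 124730433 to 124749273, plus strand), uridine monophosphate synthetase, carries the last steps of pyrimidine synthesis and converts 5-fluorouracil directly to a nucleotide. It went opposite ways in the lines. Its FPKM was 55.2 with NC and 68.3 with si2 in HT29, and 86.0 with NC and 66.3 with si2 in LIM1215. The controls were the lowest and the highest of the 4 values, and the knockdown libraries lay close together between them. The level was 124% of control in HT29 (120% to 128%) and 77.1% in LIM1215 (74.9% to 79.4%), with log2 ratios of 0.30 and −0.37.

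DUT (ENSG00000128951, chromosome 15, 48331011 to 48343373, plus strand), the dUTP pyrophosphatase, removes dUTP and its fluorinated form before they are built into DNA. Its FPKM was 49.6 and 34.0 in HT29 control and knockdown and 64.1 and 43.2 in LIM1215. As for UCK2, both knockdown libraries were below both controls, a pattern whose share over all genes was not computed. The share of control was nearly the same in each line, 68.5% in HT29 (63.9% to 73.3%) and 67.4% in LIM1215 (63.2% to 71.8%). The log2 ratios were −0.53 and −0.56. The antisense gene DUT-AS1 reached an FPKM of 1.13 in the HT29 knockdown library and at most 0.410 in the others.

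FPGS (ENSG00000136877, chromosome 9, 127794597 to 127814327, plus strand), folylpolyglutamate synthetase, keeps reduced folates in the cell. Its FPKM was 31.7 and 39.1 in HT29 control and knockdown and 43.5 and 42.2 in LIM1215. The HT29 control was the lowest of the 4 values. The level was 124% of control in HT29 (115% to 133%, log2 ratio 0.30) and 96.8% in LIM1215 (90.5% to 104%, log2 ratio −0.05), so no difference was detectable in LIM1215.

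DPYD (ENSG00000188641, chromosome 1, 97077743 to 97995000, minus strand), dihydropyrimidine dehydrogenase, is the first and rate-limiting enzyme of fluorouracil breakdown, and its gene spans 917 kilobases. It was scarcely expressed in either line. Its FPKM was 0.489 with NC and 0.110 with si2 in HT29, and 0.582 with NC and 0.120 with si2 in LIM1215. These rest on an estimated 44, 10, 45 and 10 fragments. Both knockdown libraries lay below both controls, and the counting intervals of level did not overlap between control and knockdown in either line. How many genes of similar level did the same was not computed.

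With si2, DPYD was at 22.5% of control in HT29 (10.05% to 45.2%) and 20.6% in LIM1215 (8.93% to 40.0%). On the log2(FPKM + 1) scale, which hides differences of such low genes, the ratios were −0.42 and −0.50. Among the 3524 genes of at least 500 bases with a mean FPKM within 2-fold of that of DPYD, 11.9% stood at or below 25% of control in HT29, 10.5% in LIM1215 and 1.87% in both. Of 9 annotated genes that overlap DPYD, 8 were listed at 0 in all libraries, and the pseudogene SEC63P1 had at most 0.0889.

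The later enzymes of the breakdown route were looked at beside it, chosen with their values already known. DPYS, the dihydropyrimidinase, was listed at 0 in all 4 libraries. UPB1, beta-ureidopropionase, the final enzyme, had an FPKM of 2.12 with NC and 0.402 with si2 in HT29, and 0.942 with NC and 0.186 with si2 in LIM1215. With si2 it was at 19.0% of control in HT29 (12.3% to 27.6%) and 19.7% in LIM1215 (10.4% to 36.5%), from 163, 31, 62 and 14 fragments. Its mean FPKM was under 1, so it was not among the genes compared by fold. The share of genes at the level of UPB1 that stood as low was not computed.

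**Figure D2:**
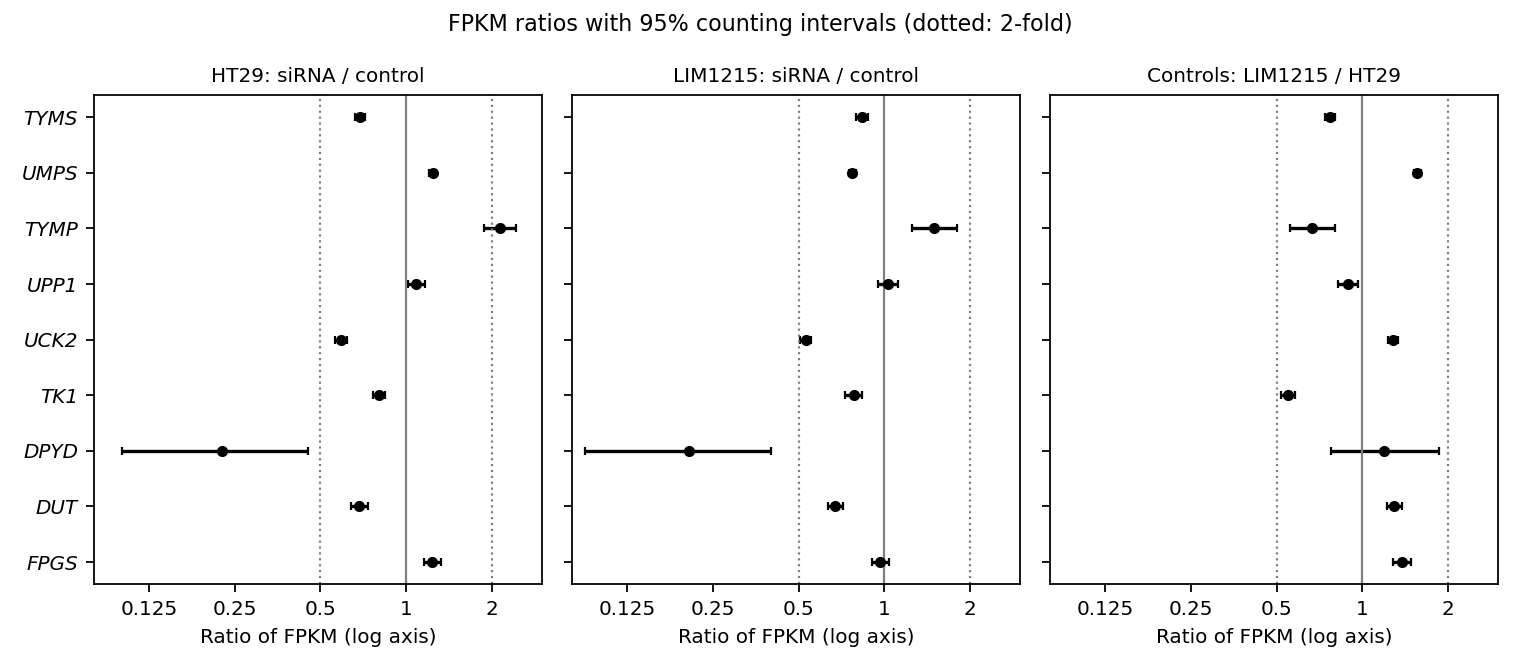
Ratio of FPKM (log axis, no pseudocount) for the 9 genes in the 3 comparisons, with 95% counting intervals, 1 library against 1 library. DPYD has the lowest ratio and the widest interval in both lines, TYMP the highest ratio, and UMPS lies above 1 in HT29 and below 1 in LIM1215.

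As a set, the 8 compared members were not shifted strongly. In HT29, 4 were higher and 4 lower than control, where 44.4% of all genes compared were lower. The median log2 ratio was −0.10 against 0.04 over all genes compared. In LIM1215, 2 were higher and 6 lower, where 46.4% of all genes compared were lower, and the median was −0.31 against 0.02. TYMS, UCK2, TK1 and DUT were lower in both lines, 4 of 8 against 28.0% of all genes compared. TYMP and UPP1 were higher in both, 2 of 8 against 36.0%, and UMPS and FPGS went opposite ways, 2 of 8 against 33.8%. The counting interval excluded no difference for 8 of 8 in HT29 and 6 of 8 in LIM1215. The same held for 66.3% and 63.7% of the genes of at least 500 bases, so that property is common in these libraries.

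A test of si2 against NC over both lines was added after the data had been seen, with limma on log2(FPKM + 1), the line as a block and a variance that follows the expression level. The 2 lines stand in for replicates. The error joins the spread of a gene's knockdown difference between lines (1 residual degree of freedom) with a variance from genes of similar level. The latter weighs more (6.06 prior degrees of freedom), so the SE is not the spread between the lines alone. UCK2 was the only 1 of the 8 compared members with an adjusted p under 0.05, against 1.95% of all genes (127 higher and 161 lower). Its log2 difference was −0.82 ± 0.12 (SE, limma adjusted p = 0.030, lower in both lines). DUT (−0.55 ± 0.12, limma adjusted p = 0.070) and TYMP (0.78 ± 0.18, limma adjusted p = 0.081) missed the threshold. TYMS did too (−0.40 ± 0.12, limma adjusted p = 0.13), as did TK1 (−0.33 ± 0.11, limma adjusted p = 0.16). UMPS, UPP1 and FPGS had adjusted p values of 0.94, 0.76 and 0.66 in limma. The UCK2 call depended on the settings: its limma adjusted p was 0.036 with a pseudocount of 5, 0.061 with a pseudocount of 0.1 and 0.23 without the variance trend, where limma called 0 of all genes and 2273 had an unadjusted p under 0.05.

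The control libraries were compared next, to ask how the lines differ before knockdown. None of the 8 members differed by 2-fold, against 19.4% of all genes compared. Past 1.5-fold were UMPS, higher in LIM1215 (156% of HT29, interval 151% to 161%, log2 ratio 0.63), and TK1, lower in LIM1215 (54.8%, 51.7% to 58.0%, log2 ratio −0.86), 2 of 8 against 38.0% of genes. TYMS was at 76.8% of the HT29 level, TYMP at 66.7% and UPP1 at 89.1%. DUT was at 129%, UCK2 at 128% and FPGS at 137%. DPYD was at 119%, with an interval of 77.3% to 186% that includes no difference. The median log2 ratio of the 8 was 0.09, against 0.05 over all genes.

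The line comparison depended on scaling, since the LIM1215 control had the larger FPKM sum. Rescaling to a common sum moved the median of all genes by −0.16 and upper quartile scaling by −0.13. TK1 then passed 2-fold, and the median of the 8 changed sign to −0.08 and −0.06. The split of all genes past 2-fold, 1773 higher and 1099 lower as deposited, became 1489 and 1452 after rescaling. The direction of each member's own ratio was unchanged under all scalings tried.

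Because FPKM is corrected for length, the genes can be ranked within a library. TYMS was first and TYMP and DPYD were the last in all 4. TK1 was next to TYMS in both HT29 libraries, and UMPS in both LIM1215 libraries. In the HT29 control, DUT, UCK2 and UPP1 (49.6, 48.7 and 48.4) had overlapping counting intervals and no order can be given. The same held for DUT and UCK2, and for FPGS and UPP1, in the LIM1215 control, and for UPP1, DUT and FPGS in the LIM1215 knockdown library. UCK2 held rank 7 in each knockdown library, with no overlap with its neighbours, and stood higher in both controls. Among 12295 protein-coding genes compared, the control level of TYMS stood at percentile 96.3 in HT29 and 93.9 in LIM1215, and that of TYMP at 41.1 and 28.5.

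Genes whose 3 log2 ratios were most like those of TYMS and TYMP were sought among 9885 protein-coding genes with a mean FPKM of at least 5. Likeness was the Euclidean distance over the 3 ratios, which rest on 4 libraries. Nearest to TYMS were MRPL13 (distance 0.0733), SF3B4 (0.0784) and DHX57 (0.0862). Nearest to TYMP were MALL (0.159), ACVR2B (0.165) and AMH (0.183). Only 1.85% of all genes compared were higher by 2-fold in HT29, as TYMP was. Whether this bears on its larger distances than those of TYMS was not tested, so no meaning is read into them.

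The rest of the pathway was then read from 7 lists of 60 genes, of which 54 were among the genes compared. In HT29, 0 of the 54 were higher and 2 lower by 2-fold, against 1.85% and 1.95% of all genes compared. In LIM1215 these numbers were again 0 and 2, against 1.68% and 1.78%. The genes past 2-fold were all S phase genes. The median log2 ratio of the 54 was −0.17 in HT29 and −0.13 in LIM1215, against 0.04 and 0.02 over all genes.

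The folate cycle supplies the methyl group that TYMS transfers. Of the 11 genes of this list that were compared and are reported here, none passed 2-fold in HT29 or LIM1215, with medians of −0.11 and 0.0019. The HT29 ratio was above 0 for 4 of them and below 0 for 7, against 44.4% of all genes compared below 0. The LIM1215 ratio was above 0 for 6 and below 0 for 5, against 46.4% below 0.

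The serine hydroxymethyltransferases of this cycle and the main folate carrier are added after their values were seen. SHMT2 was at 55.9% and 51.7% of control in HT29 and LIM1215, and SHMT1 at 73.5% and 70.5%. SLC19A1, the reduced folate carrier, went the other way. Its FPKM was 14.3 and 28.7 in HT29 control and knockdown and 14.4 and 27.2 in LIM1215, or 201% and 189% of control. Its log2 ratios on FPKM + 1, 0.96 and 0.87, fell short of the threshold, but with a pseudocount of 0.1 the HT29 ratio passed it.

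None of the 4 genes of deoxynucleotide supply passed 2-fold in either line. In HT29 all 4 ratios were below 0, against 44.4% of all genes, with a median of −0.54, and the interval of SAMHD1 (93.3% of control, 85.0% to 103%) included no difference. In LIM1215 the median was −0.30, with 3 of 4 below 0, against 46.4%. RRM2, the small subunit of ribonucleotide reductase and again named after its values were seen, was at 62.1% of control in HT29 and 62.2% in LIM1215. RRM2B, the p53-inducible form of that subunit, had FPKM values of 34.9 with NC and 21.1 with si2 in HT29 (log2 ratio −0.70), and of 16.0 and 19.7 in LIM1215 (log2 ratio 0.29).

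In the list of salvage, prodrug activation and breakdown, 0 of 10 compared genes passed 2-fold in either line, with medians of 0.14 and 0.06. CDA, cytidine deaminase, acts in capecitabine activation before TYMP does. Its FPKM was 11.2 and 19.9 in HT29 control and knockdown and 30.7 and 44.1 in LIM1215. With si2 it was at 178% of control in HT29 (145% to 220.0%) and 144% in LIM1215 (125% to 165%). CES2, a carboxylesterase that takes part in the first activation step, was at 143% and 102% of control. It separated the lines more, since its control FPKM was 15.2 in HT29 and 69.6 in LIM1215, a log2 ratio of 2.12. CES1 was listed at 0 in all libraries.

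Of the 8 genes of pyrimidine synthesis and nucleotide kinases, none passed 2-fold after knockdown, with a median of −0.12 in each line. CMPK1, the kinase that acts after UMPS and UCK2, had the lowest HT29 ratio (−0.88, and −0.37 in LIM1215), and DHODH, the enzyme just before UMPS in pyrimidine synthesis, the highest (0.20 and 0.02). Of 6 genes for repair of uracil in DNA, none passed either. TDG, a DNA glycosylase, had the highest HT29 ratio (0.22, and 0.26 in LIM1215), and MBD4 the lowest (−0.64, and 0.36 in LIM1215).

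Between the controls, 5 of the 54 genes were higher and 2 lower in LIM1215 by 2-fold, against 12.0% and 7.42% of all genes compared. Higher were CES2, CDA (log2 ratio 1.38), GGH (1.95), SLC46A1 (1.39) and SLC28A3 (1.42). GGH removes the glutamates that FPGS adds, and SLC46A1 is the proton-coupled folate carrier. SLC28A3, a concentrative nucleoside transporter, had a control FPKM of 0.151 in HT29 and 2.09 in LIM1215. Lower were NT5M (−1.17), which rests on an estimated 22 fragments in the LIM1215 control, and RRM2B (−1.08). With a pseudocount of 5 the calls of NT5M (−0.49), RRM2B (−0.93) and SLC28A3 (0.46) were lost, and SLC28A3 was at 3.12 with a pseudocount of 0.1.

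In the limma test over both lines, 1 of the 54 list genes was called higher and 6 lower. Over all 14803 genes compared, 127 were called higher and 161 lower, 1.95% in all. Of the list genes, SLC19A1 was higher, and SHMT2, RRM2 and 4 of the 12 S phase genes (CDC6, CDC45, MCM3 and GINS2) were lower. A pseudocount of 0.1 left SHMT2 and CDC6, and without the variance trend none was called.

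S phase genes were set beside the members because TYMS, TK1 and DUT are active in S phase. All 12 were lower in both knockdown libraries, against 28.0% of all genes compared, with medians of −0.61 in HT29 and −0.64 in LIM1215. Past 2-fold were CDC6 (−1.42 in HT29 and −1.49 in LIM1215), MCM4 in HT29 (−1.05) and CDC45 in LIM1215 (−1.06), a call lost with a pseudocount of 5 (−0.86). CDC6 loads and MCM4 is part of the replicative helicase, and CDC45 activates it. TYMS, TK1 and DUT lay above the S phase median in both lines, at −0.54, −0.32 and −0.53 in HT29 and −0.26, −0.35 and −0.56 in LIM1215. The part of cell cycle distribution in these values was not tested.

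**Figure D3:**
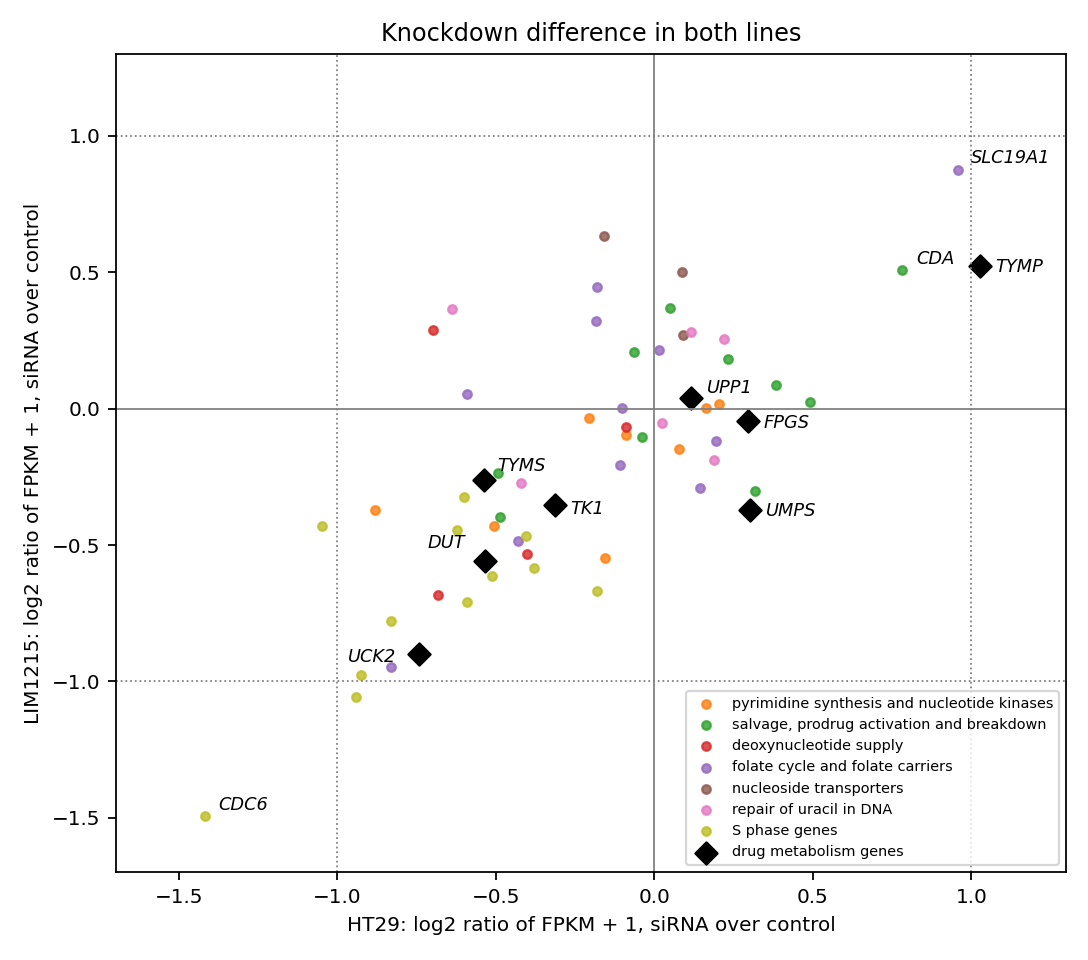
Log2 ratio of FPKM + 1, knockdown over control, in HT29 (x axis) and LIM1215 (y axis), 1 point per gene, for the 8 compared drug metabolism genes (black diamonds) and the 7 lists (colours). Dotted lines mark 2-fold. TYMS, TK1, DUT and UCK2 lie at the lower left with the S phase genes, and TYMP lies at the right with CDA and SLC19A1.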

How the data were processed

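Per the labels' protocols, total RNA was isolated with the miRNeasy Micro Kit and poly(A) libraries were prepared with TruSeq Stranded mRNA. Per the submitters' processing notes, HISAT2 2.1.0, SAMtools 1.20, Cufflinks 2.2.1 and Cuffdiff were used with GRCh38. The annotation, strand setting and treatment of shared fragments are not given in the sources used here. The deposited tables hold FPKM, per the file headers, 1 library per group. An FPKM value therefore depends on what the other genes of its library take up.

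Symbols and positions came from GENCODE release 44 (GRCh38), which matched 56550 identifiers. Log2 ratios were computed on FPKM + 1 (a pseudocount of 1) for the 14803 genes with a mean FPKM of at least 1, and called at 2-fold. With 1 library a group no p-value was computed within a line. limma 3.58.1 (R 4.3.3) tested si2 against NC over both lines, with the line as a block, 1 residual degree of freedom and Benjamini-Hochberg adjustment over all genes compared. Depth was estimated from genes with 1 transcript of at least 500 bases, by bringing most low values within 0.03 of whole fragments (77.3% to 79.3% of them). Fragments of other genes used the canonical transcript, so intervals of genes with several isoforms are approximate. Calculations used Python 3.11.15, pandas 2.3.3 and SciPy 1.17.1, and were tested on simulated data.

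The members and lists were chosen with earlier results of these data known. Named were all 9 members, TMEM161A, genes overlapping a member, and from each list the genes past 2-fold in any comparison or, failing that, those with the highest and lowest HT29 ratio. 1 gene of the folate list is not reported here and was left out of the list's counts and medians. The 3 nearest patterns were named for TYMS and TYMP. Alternatives were a pseudocount of 0.1 or 5, no filter or a mean FPKM of at least 5, 3 other scalings, a 1.5-fold threshold and protein-coding genes alone. A pseudocount of 0.1 with no filter, and the limma test, were added after seeing the data.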

Additional observations from a re-analysis of the deposited data

Results flagged for a closer look

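Among the members and the genes named from the lists by rule, 6 had log2 ratios of opposite sign in HT29 and LIM1215. Each line had 1 library per siRNA, so the difference between the lines was not tested for any of them. The difference, LIM1215 minus HT29, was −0.67 for UMPS (0.30 in HT29 and −0.37 in LIM1215) and −0.34 for FPGS (0.30 and −0.05). It was 0.99 for RRM2B (−0.70 and 0.29), 1.005 for MBD4 (−0.64 and 0.36), 0.65 for GGH (−0.59 and 0.06) and 0.79 for SLC28A3 (−0.16 and 0.63). For UMPS, RRM2B and MBD4 the counting interval excluded no difference in both lines. For FPGS and GGH the LIM1215 interval included it, and SLC28A3 in HT29 rested on an estimated 15 and 3 fragments. Of all genes compared, 33.8% had ratios of opposite sign.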

How the results depend on the processing

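With the line as a replicate block, limma called 288 genes and 1 member (UCK2). With that block, a pseudocount of 0.1 gave 50 genes and 0 members, a pseudocount of 5 gave 207 and 1, and no variance trend gave 0 and 0. For the members, all 198 alternative log2 ratios had the sign of the main value. Members past 2-fold in HT29 (1, TYMP) numbered 0 with a pseudocount of 5, with upper quartile scaling, after centring and after rescaling to a common sum, but 2 at 1.5-fold and with a pseudocount of 0.1 and no filter, where DPYD was added (−1.49 in HT29, −1.63 in LIM1215). In LIM1215 the count of 0 became 1 at 1.5-fold and with that same pair of choices. Between controls the 0 became 1 with rescaling and upper quartile scaling, and 2 at 1.5-fold. The HT29 median of members moved from −0.10 to −0.32 without the filter and −0.32 with the pair of choices, because DPYD then entered. The median between controls, 0.09, moved to 0.21 with that pair and reversed to −0.0845 with rescaling and −0.0588 with upper quartile scaling.

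Genes past 2-fold over all genes compared were 562 in HT29, 512 in LIM1215 and 2872 between controls. A pseudocount of 0.1 gave 1128 in HT29 and 984 in LIM1215, and a pseudocount of 5 gave 181, 156 and 1300. A mean FPKM of at least 5 gave 272, 202 and 1670, and 1.5-fold gave 2188, 1897 and 5629. Without the filter LIM1215 had 770, and protein-coding genes alone gave 273 in HT29 and 202 in LIM1215. Depth limits DPYD, UPB1, NT5M, DUT-AS1, TYMSOS, ODF3B and SLC28A3, each with fewer than 40 fragments in at least 1 library.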
